A study of Mus musculus with 8 samples.

Results

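The insulin-like growth factor (IGF) axis was examined as 10 genes, chosen by name: the ligand genes Igf1 and Igf2, the receptor genes Igf1r and Igf2r, and the binding protein genes Igfbp1, Igfbp2, Igfbp3, Igfbp4, Igfbp5 and Igfbp7. Every probe set annotated to 1 of these genes alone was taken, which gave 28 of the 45101 probe sets on the array. All 10 genes and 27 of the 28 probe sets passed the filter on low levels. The study compares hepatoblasts without the Ink4a-Arf locus after transduction with Bmi1, a subunit of Polycomb repressive complex 1, or with EGFP. It holds 8 Affymetrix mouse arrays, 4 titled Control and 4 titled Bmi1, numbered as replicates 1 to 4 in each group and described as 4 independent experiments. All cells, controls included, were Ink4a-Arf-null and came from embryonic liver at day 14.5. Dlk-positive cells were taken by magnetic sorting, kept 12 to 18 h on collagen type IV, and transduced with EGFP (Control) or with Bmi1. The medium held 50 ng/ml HGF and 20 ng/ml EGF, and the cells were purified on day 28 of culture by flow cytometry, after which RNA from the equivalent of 10000 cells was amplified in 2 cycles before hybridisation. The sources used here do not give the vector, its promoter or the number of embryos.

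IGF1 and IGF2 are small secreted proteins related to insulin. Both act through the receptor tyrosine kinase encoded by Igf1r, while the Igf2r product, also the cation-independent mannose-6-phosphate receptor, takes up IGF2 for degradation. The IGF binding proteins hold the ligands in extracellular fluid and control how much reaches the receptor. Fetal liver is known for high Igf2, an imprinted gene expressed from the paternal allele, and adult hepatocytes for Igf1, which growth hormone induces.

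The groups are called by their titles throughout, because Bmi1 itself gave a lower signal where the titles name it. The brighter Bmi1 probe set read 518 ± 218 in Control and 279 ± 60.01 in Bmi1 (SD, n = 4 each), and the dimmer 216 ± 136 against 100.3 ± 25.4. In 4 of 4 pairs of equal replicate number the array titled Bmi1 was the lower at each probe set. Where these probes lie on the transduced sequence is not stated in the labels. The Cdkn2a probe set, for the deleted locus, was at background on 7 of 8 arrays. The hepatoblast and fetal liver genes Alb (3004 to 5548), Afp (3695 to 6271), Ttr (3373 to 5492) and Dlk1 (543 to 3133) were above background on all 8 arrays, while the endothelial markers Pecam1 and Tek and the erythroid marker Alas2 were at background on all 8. The other endothelial and erythroid markers were not at background on every array. The summed signal of the 7 endothelial markers was 114 to 233 in Control and 240 to 350 in Bmi1, higher in 4 of 4 pairs. Only 1 of them was tested, the others being under the level filter. It rose in limma with the replicate block (log2 difference 0.95), where 3.33% of all genes were called, and did not pass without it. The summed signal of the 3 erythroid markers on the array was 28.3 to 70.4 and 48.3 to 91.7, and the 1 tested gave 0.98 and did not pass in limma. Signals here are the deposited linear intensities, scaled by the authors to a trimmed mean of 100 on each array, with array medians of 11.2 to 20.5. Replicates 1 and 2 stood apart from replicates 3 and 4 in both groups, with the BioC 3' hybridisation control at 198 to 274 on the former and 97.0 to 119 on the latter.

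Promoter sequence is shown for the 1 gene of the axis that passed in limma with the replicate block and not without it (Igf1), for a binding protein gene known as a target of insulin signalling (Igfbp1), and for G6pc, a gene that insulin represses and that fell in these data. The windows are from RefSeq (GRCm38.p6) and run from 250 bases before to 50 bases after an annotated start, 300 bases in all; the G6pc line shows 60 of them. All 3 are on the plus strand: chr10:87860861-87861160 lies within the Igf1 gene, whose RefSeq span begins further upstream, chr11:7197537-7197836 covers the Igfbp1 start, and chr11:101367516-101367575 lies upstream of G6pc. Capitals mark CCAAT in either orientation for Igf1, and CAAAACA, the core of the insulin response sequence to which FOXO proteins bind, in either orientation for the others.
Igf1 promoter window: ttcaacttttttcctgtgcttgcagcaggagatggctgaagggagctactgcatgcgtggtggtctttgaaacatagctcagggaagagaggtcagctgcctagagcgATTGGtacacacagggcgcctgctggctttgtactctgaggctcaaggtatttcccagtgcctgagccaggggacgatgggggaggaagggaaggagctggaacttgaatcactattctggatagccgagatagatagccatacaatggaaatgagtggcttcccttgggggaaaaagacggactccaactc
Igfbp1 promoter window: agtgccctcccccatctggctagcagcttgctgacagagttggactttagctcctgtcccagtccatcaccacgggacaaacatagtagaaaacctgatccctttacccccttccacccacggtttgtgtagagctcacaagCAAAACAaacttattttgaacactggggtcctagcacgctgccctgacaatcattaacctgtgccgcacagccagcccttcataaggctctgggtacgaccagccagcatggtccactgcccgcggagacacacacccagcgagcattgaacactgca
G6pc upstream stretch: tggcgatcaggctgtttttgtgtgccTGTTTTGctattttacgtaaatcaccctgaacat
In the Igfbp1 window CAAAACA reads on the plus strand and its first base lies 108 bases upstream of the start. In G6pc the motif reads on the minus strand, so the capitals are its reverse complement, which begins 174 bases upstream. Searched on both strands, CAAAACA was in 6.28% of 32851 RefSeq promoter windows of this length, and among the 14 windows of the 10 IGF axis genes it was in 1, that of Igfbp1. The Pck1 window held none. The window of Irs2, also listed as repressed by insulin through Foxo1, held the motif on the minus strand, 37 bases upstream. Irs2 had a higher mean in the arrays titled Bmi1 (log2 difference 0.44), which did not pass in limma. The minus strand of the Igf1 window held CCAAT, seen in capitals as its reverse complement from 142 bases upstream, a motif present in 37.4% of all windows and in 2 of the 14. GGGCGG, the GC box, was in 6 of the 14 windows and in 35.7% of all, and TATAAA was in 1, that of Igfbp4, and in 13.6% of all. These matches describe letters in a window and were not tested against the array values.

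Across the axis, 9 of 10 genes had a lower mean in the arrays titled Bmi1, and 1, Igf1r, had a higher one. A lower mean was found for 54.3% of all 10916 tested genes, a share that was 42.3% with no centring, 44.4% with quantile normalisation and 33.2% with arrays centred on all probe sets. The median difference was -0.28 on the log2 scale for the 10 genes and -0.03 for all tested genes. In the limma fit without a block, 0 of 10 passed an adjusted p of 0.05, against 0.165% of all genes, and 1 (Igfbp3) had an unadjusted p under 0.05, against 7.81%. A second fit had the replicate number as a block, which sets each array against its partner of equal number. There 1 of 10 passed in limma (Igf1, lower), against 3.33% of all genes and 1.96% in the lower direction, and 3 had an unadjusted p under 0.05, against 18%. After centring, Igf1, Igf2 and Igfbp7 were lower in 4 of 4 pairs, as were 15.9% of tested genes. No member gene had groups that did not overlap, against 5.33% of tested genes. Under each of the 4 scalings tried 9 of 10 were lower, but with arrays centred on all probe sets the median of all genes was 0.11, and Igfbp4 (-0.01) and Igfbp7 (-0.01) lay nearest to 0.

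**Figure D1:**
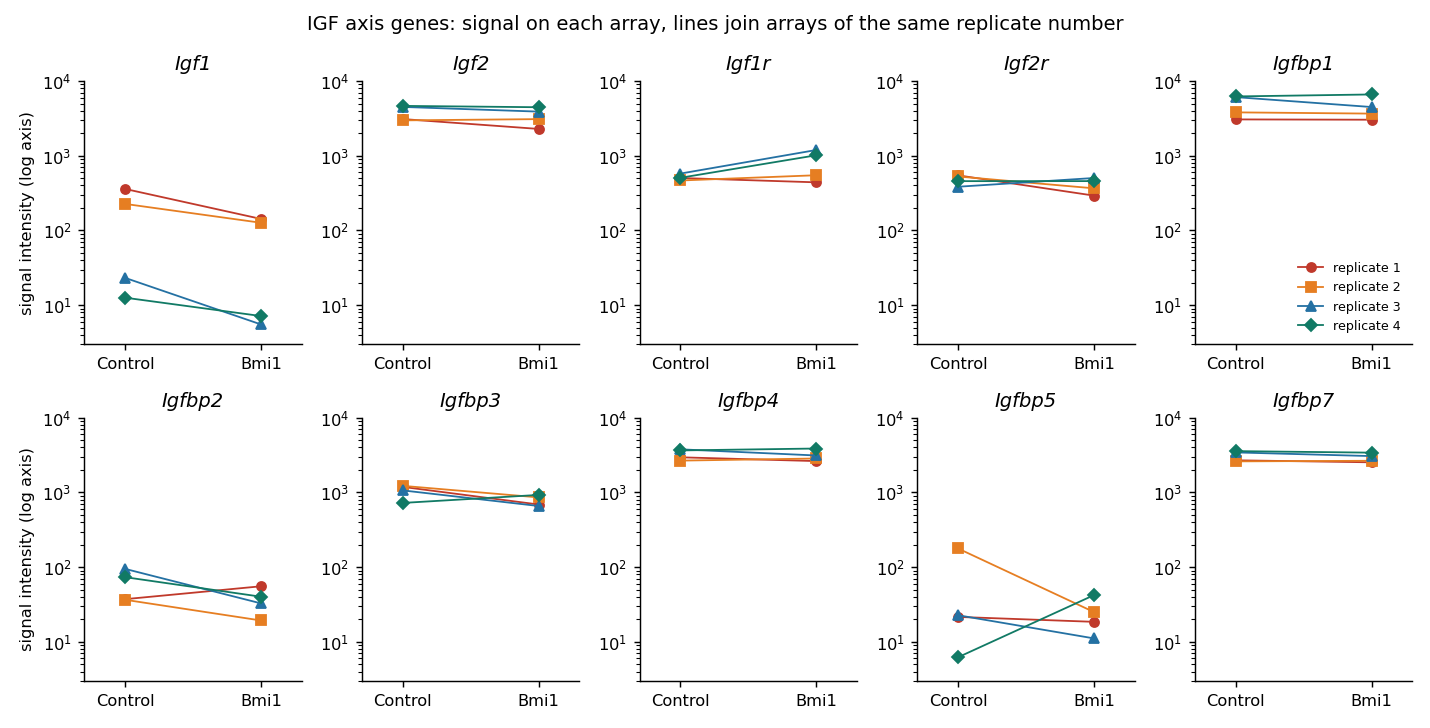
Signal intensity (log axis) of the probe set that stands for each of the 10 IGF axis genes on 8 arrays, with lines joining arrays of the same replicate number. Igf1 lies between 127 and 360 in replicates 1 and 2 and between 5.52 and 23.2 in replicates 3 and 4, with the array titled Bmi1 below its Control in each pair.

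Igf1, the ligand that growth hormone induces in liver, fell in the arrays titled Bmi1 when arrays were set against their partners. The gene spans chr10:87858265-87937047 in GRCm38.p6. At its brightest probe set (1437401_at) the Control arrays read 360, 227, 23.2 and 12.6 in replicates 1 to 4, and the Bmi1 arrays 143, 127, 5.52 and 7.15. Each Bmi1 array was below its own partner, yet the groups overlapped widely, because replicates 1 and 2 of both groups were far above replicates 3 and 4. The differences within pairs were -1.41, -0.90, -1.62 and -0.61 on the log2 scale. Their mean was -1.14 (95% interval -1.64 to -0.63, limma adjusted p = 0.0348 with the replicate block). Without the block the same difference had an interval of -4.00 to 1.73 (limma adjusted p = 0.954). Group means were 155.5 ± 168 in Control and 70.5 ± 74.4 in Bmi1 (SD, n = 4 each).

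The 4 Igf1 probe sets differed between the groups by similar amounts. With each probe set tested by itself, 1434413_at gave -1.25, -1.24, -1.12 and -1.20 in pairs 1 to 4, a mean of -1.20 (limma adjusted p = 0.0137 with the replicate block). The means of 1437401_at (-1.14, adjusted p = 0.0373) and 1419519_at (-1.05, adjusted p = 0.0366) passed in the same limma fit, and 1452014_a_at (-1.25, adjusted p = 0.0567) did not. These 3 were the only ones to pass among the 27 tested probe sets of the axis, against 1.76% of all 26463 probe sets tested and 0.986% in the lower direction. At an unadjusted p under 0.05 in limma there were 8 of 27 with the block, against 14.1%. The 8 were the 4 of Igf1, both of Igf2, that of Igfbp2 and 1423062_at of Igfbp3. Probe sets of the same gene are repeat readings and not independent, so these counts are not counts of genes. Without the block 0 of 27 passed in limma, against 0.0265%, and 2 had an unadjusted p under 0.05, against 5.56%. All 4 Igf1 probe sets were above background on 8 arrays except 1452014_a_at, which read 1.48 on Bmi1 replicate 3. The 3' to 5' signal ratio of Gapdh, which rises as RNA degrades, was 3.10 on Control replicate 1, the array highest in Igf1, and 1.65 to 1.96 on the other 7. With the block and pair 4 left out Igf1 passed (limma adjusted p = 0.0388), and without pair 1, 2 or 3 it did not (0.131, 0.110 and 0.109). The difference itself stayed similar, at -1.05 without pair 1, which holds the array with the high Gapdh ratio, and at -1.21, -0.97 and -1.31 without pairs 2, 3 and 4. Without the block, leaving out 1 array moved it to between -0.37 (without Control replicate 1) and -1.91 (without Control replicate 4). It was also -0.45, -0.54 and -0.61 without Bmi1 replicate 3, Bmi1 replicate 4 and Control replicate 2, and -1.82 and -1.74 without Bmi1 replicates 1 and 2. Within replicates 1 and 2 alone the difference was -1.16 (limma adjusted p = 0.407) and within replicates 3 and 4 alone -1.12 (0.529), comparisons of 2 arrays against 2 in which 0 genes of the whole array passed. With replicates 1 and 2 against 3 and 4 as the block in place of the pairs, Igf1 was the 1 gene of 10 to pass, at a limma adjusted p of 0.0495, against 1.81% of all genes. That division of the arrays was made after values were seen, and Igf1 ranked 2 among the falls of all tested genes across it. With limma's array weights and no block the sign turned, to 0.40 (limma adjusted p = 0.935).

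**Figure D2:**
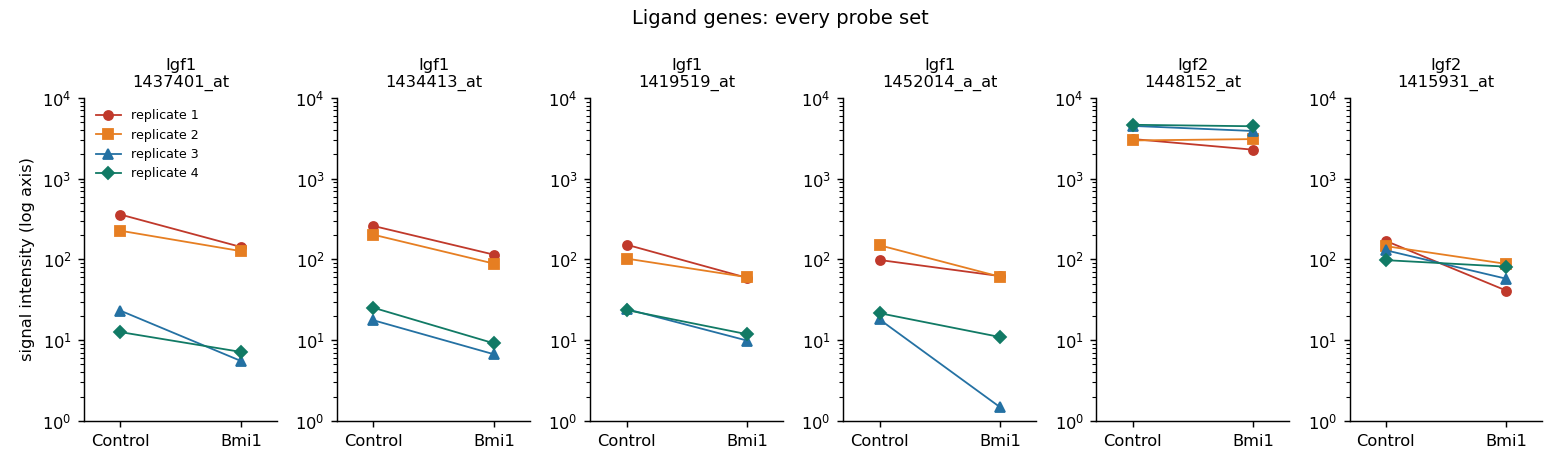
Signal intensity (log axis) of the 4 Igf1 and both Igf2 probe sets on each array, lines joining arrays of the same replicate number. In all 4 Igf1 panels the lines fall from Control to Bmi1 and split into replicates 1 and 2 above and replicates 3 and 4 below. Neither Igf2 probe set shows that split in both groups, although the Control arrays of 1415931_at follow it.

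The difference between replicates was larger for Igf1 than that between the titles. Its mean signal was 214 over the 4 arrays of replicates 1 and 2 and 12.1 over those of replicates 3 and 4, 17.7-fold apart. On the log2 scale this was -3.88, rank 2 among the falls of all 10916 tested genes, given as a description because this division of the arrays was made after values were seen. The other 9 genes of the axis lay between -1.11 (Igfbp5) and 0.68 (Igfbp1) in the same comparison. Markers of hepatic stellate cells and fibroblasts, mesenchymal cells that also express Igf1, moved with both differences. Of 12 listed, 12 were on the array, 11 were tested, and 11 had a lower mean in the arrays titled Bmi1 (median difference -1.01), of which 0 passed without the block and 1 with it in limma (unadjusted p under 0.05: 1 and 5). The shares of all genes were 54.3% lower, 0.165% and 3.33% passing, and 7.81% and 18% at such an unadjusted p. Their median was -1.70 in replicates 3 and 4 relative to replicates 1 and 2. Summed signals of the 12 were 16654, 10094, 6426 and 5480 in Control replicates 1 to 4, and 4882, 9117, 5708 and 3792 in Bmi1. The sum was lower in the Bmi1 array in 4 of 4 pairs, by far the most in pair 1, and 0 of the 12 markers were at background on all arrays. Mesothelial markers moved the same way: 3 of the 5 on the array were tested and 3 were lower (median -0.89, 1 called with the block in limma and 0 without), their sum was lower in 4 of 4 pairs (102 to 299 in Control, 47.0 to 151 in Bmi1), and their median was -0.55 in replicates 3 and 4 relative to replicates 1 and 2. Of the 6 macrophage markers on the array 3 were tested and 3 were lower (median -0.45, 0 called in limma with or without the block). Their sum was lower in 3 of 4 pairs (273 to 703 in Control, 182 to 517 in Bmi1). Their median was 0.35 in replicates 3 and 4 relative to replicates 1 and 2, the opposite direction to Igf1. The part of any of these cell types in the Igf1 difference was not tested. Whether such cells were present among the purified cells was not tested either. In RNA pooled from many cells, fewer cells of a type and less RNA per cell cannot be told apart.

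**Figure D3:**
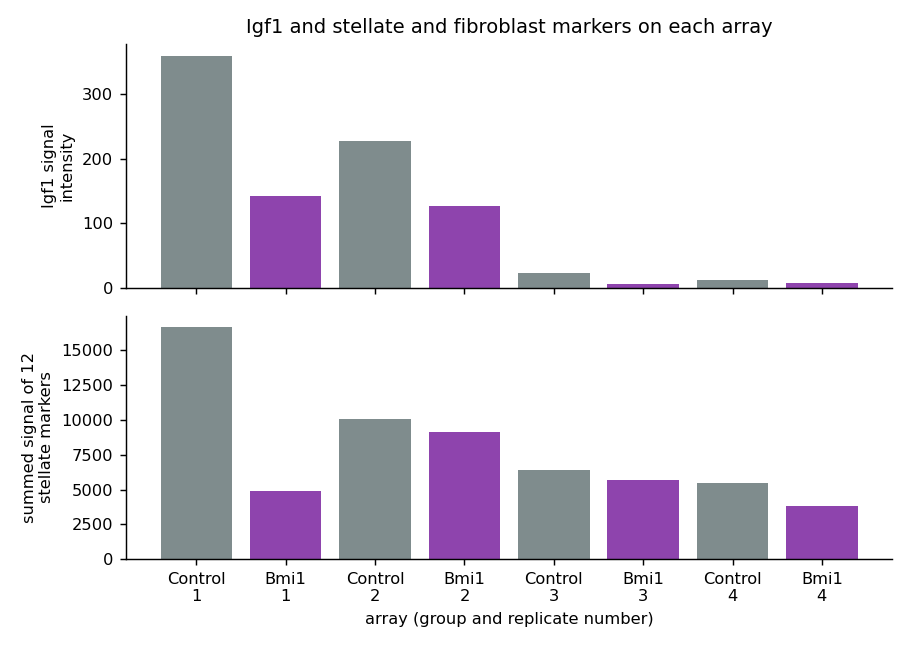
Igf1 signal intensity (upper bars) and the summed signal of 12 stellate and fibroblast markers (lower bars) on each of 8 arrays, ordered by replicate number with Control (grey) before Bmi1 (purple). Both are highest on Control replicate 1 (360 and 16654) and lower on each Bmi1 array than on its Control, but the marker sum of Bmi1 replicate 1 (4882) lies below that of Bmi1 replicate 3 (5708), the reverse of the Igf1 order.

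Igf2, the fetal ligand, was among the brightest 1% of probe sets on all 8 arrays at 1448152_at. It read 3098, 2974.5, 4503 and 4648 in Control, and 2284, 3092, 3895 and 4459.5 in Bmi1. The groups overlapped, with replicates 3 and 4 above replicates 1 and 2 in both, the opposite order to Igf1. After centring of the arrays each Bmi1 array was below its partner, although in pair 2 the signal itself was higher. The mean difference was -0.24 (95% interval -0.46 to -0.01 with the replicate block) and did not pass in limma (adjusted p = 0.257 with the block, 0.932 without). Such signals lie near the upper end of the recorded range, which closed at 4525 to 7348 on these arrays. The same holds for Igfbp1, Igfbp4 and Igfbp7 at the probe sets that stand for them, also in the brightest 1% on all 8 arrays.

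The second Igf2 probe set, 1415931_at, showed a larger difference than the bright one. Its Control arrays read 169.9, 146, 129.97 and 98.0, and its Bmi1 arrays 41.1, 88.0, 57.6 and 81.4. All Control arrays were above all Bmi1 arrays, which was so for 1 of the 27 tested probe sets of the axis and for 3.98% of all probe sets tested. The log2 difference was -1.08 and had an unadjusted p of 0.00352, but it did not pass in limma (adjusted p = 0.371 without the block, 0.0876 with it). The sequences these probe sets target within Igf2, a gene with 4 RefSeq promoter windows, are not stated in the labels, so which transcripts each one reads was not analysed here.

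Igf1r, the signalling receptor, was the 1 gene of the axis with a higher mean in the arrays titled Bmi1. Control arrays read 503, 466, 577 and 507, and Bmi1 arrays 441, 548, 1194 and 1015 (513 ± 46.1 and 799 ± 362, SD, n = 4 each). Bmi1 replicates 3 and 4 were above every other array, while Bmi1 replicates 1 and 2 lay among or below the Control arrays. The mean log2 difference of 0.45 (95% interval -0.18 to 1.07) did not pass in limma (adjusted p = 0.843, and 0.329 with the block). Pair differences were -0.29, 0.15, 0.96 and 0.97, so at this brightest probe set (1452982_at) the difference stood in pairs 3 and 4. At 1426565_at the Bmi1 array was higher in 4 of 4 pairs (0.19, 0.06, 0.77 and 0.07). The other 4 Igf1r probe sets had mean differences from 0.20 to 0.44, none of which passed in limma with or without the block.

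Igf2r, the clearance receptor, was lower in the Bmi1 array in pairs 1 and 2. It read 547, 528, 385 and 457 in Control, and 293, 366, 504 and 457 in Bmi1. The lowest arrays were Bmi1 replicates 1 and 2 and the highest were their Control partners, while pair 4 was level and pair 3 ran the other way. The mean difference of -0.33 (95% interval -0.78 to 0.12) did not pass in limma (adjusted p = 0.826, and 0.447 with the block), with pair differences of -0.99, -0.61, 0.30 and -0.03. The second probe set, 1424111_at, gave -0.12. In both receptor genes the Bmi1 minus Control difference was higher in replicates 3 and 4 than in replicates 1 and 2. This division of the arrays was made after values were seen. From the probe sets that stand for the genes, the limma interaction term was 1.03 (95% interval 0.45 to 1.62) for Igf1r and 0.93 (0.34 to 1.52) for Igf2r. These were the 2 of 10 genes of the axis with an unadjusted p under 0.05 for this term, against 2.76% of all genes. Neither passed adjustment (limma adjusted p = 0.9995 for each), and 0 genes on the whole array did.

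**Figure D4:**
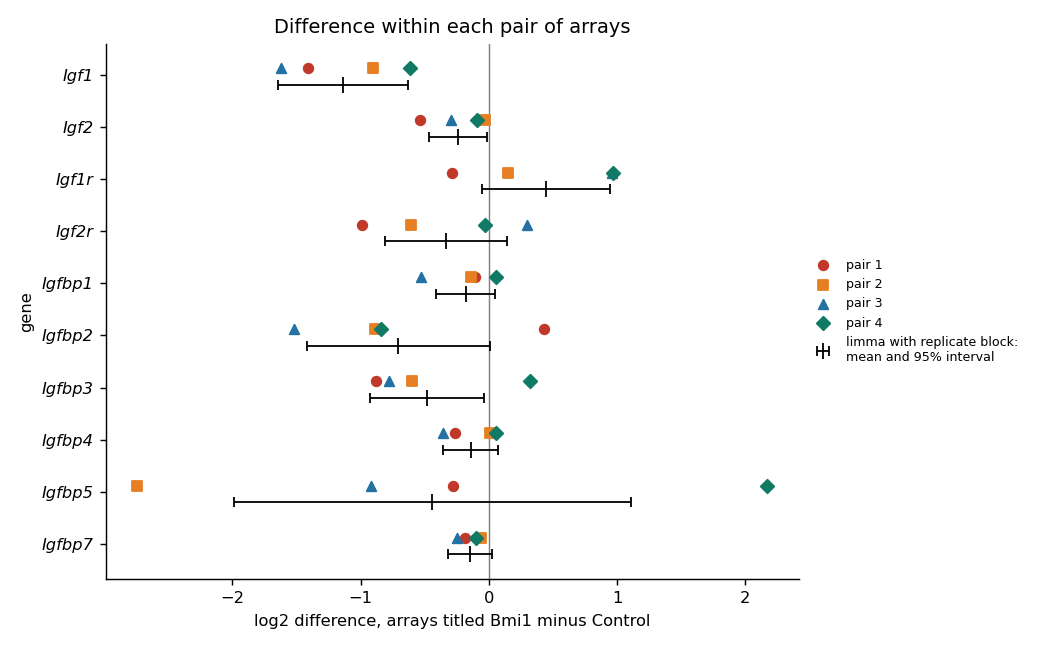
Log2 difference, Bmi1 minus Control, within each of 4 pairs of arrays (symbols) for the 10 IGF axis genes, with the mean and 95% interval of the limma fit with the replicate block (bars). Igf1 lies below 0 in every pair (-0.61 to -1.62), Igf1r is near 1 in pairs 3 and 4 only, and Igfbp5 spreads from -2.74 to 2.17.

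Among the 6 binding protein genes 0 passed in limma, with or without the block, and all 6 had a lower mean in the arrays titled Bmi1, as had 54.3% of all genes. In each fit 1 of them (Igfbp3) had an unadjusted p under 0.05, against 7.81% of all genes without the block and 18% with it. Igfbp1, the binding protein that insulin represses in liver, was among the brightest 1% of probe sets on all 8 arrays. It read 3063, 3807.5, 6091 and 6219.7 in Control, and 3035, 3664, 4487 and 6612 in Bmi1. The groups overlapped across their whole range, and replicates 3 and 4 were above replicates 1 and 2 in both. The mean difference was -0.18 (95% interval -0.41 to 0.05, limma adjusted p = 0.400 with the block).

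Igfbp3, the main carrier of IGF in blood, read 1187, 1225, 1065 and 724 in Control, and 689, 858, 658 and 926 in Bmi1. It was lower in the Bmi1 array in pairs 1 to 3 and higher in pair 4, where the Control array was the lowest of its group. The mean difference was -0.48 (95% interval -0.93 to -0.04 with the block), with an unadjusted p of 0.0494 without the block. It did not pass in limma (adjusted p = 0.635, and 0.245 with the block). Without pair 4 it was -0.75 and passed in limma with the block (adjusted p = 0.0359). The second Igfbp3 probe set, 1458268_s_at, gave -0.48 as well and differed in the same direction in each pair (-1.01, -0.60, -0.81 and 0.50). Igfbp1 and Igfbp3 lie close together on chromosome 11 in GRCm38.p6, at 7197787 to 7202546 and 7206086 to 7215498.

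Igfbp2, a binding protein of fetal tissue, was dim. It read 37.3, 36.6, 94.9 and 73.5 in Control, and 55.5, 19.3, 32.7 and 40.2 in Bmi1. The Control arrays of replicates 3 and 4 were the highest, and pair 1 went the other way from the rest (0.43 against -0.89, -1.52 and -0.84). The mean difference of -0.70 (95% interval -1.42 to 0.01 with the block) did not pass in limma (adjusted p = 0.283 with the block, 0.765 without). Igfbp5, known from mesenchymal cells, read 21.6, 178, 22.7 and 6.22 in Control, and 18.5, 25.0, 11.1 and 42.2 in Bmi1. The Control array of replicate 2 stood above the other 7, Control replicate 4 was at background, and the pair differences ran from -2.74 to 2.17. The mean was -0.44 (95% interval -1.99 to 1.11 with the block, limma adjusted p = 0.782). The other Igfbp5 probe set pointed the other way, with a mean of 0.91 (limma adjusted p = 0.361 with the block). These values give no direction for Igfbp5.

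Igfbp4, which binds both ligands and is cut by the protease PAPP-A, and Igfbp7, a relative of low affinity for IGF, were among the bright genes of the axis at the probe sets that stand for them. Igfbp4 at 1437405_a_at read 2954, 2667, 3777 and 3651 in Control, and 2627, 2848, 3123 and 3872 in Bmi1. The groups overlapped, and the mean difference was -0.14 (95% interval -0.35 to 0.08, limma adjusted p = 0.481 with the block). Its 6 probe sets gave differences from -0.38 to 0.20, the highest from a dim probe set that read 8.77 to 41.8. Pair differences were wider at 1421992_a_at (0.48, 0.16, -1.37 and -0.62) and at 1423757_x_at (0.17, -0.11, -1.19 and -0.41) than at 1437405_a_at (-0.26, 0.01, -0.36 and 0.06). Igfbp7 at 1423584_at read 2692, 2605.5, 3433 and 3574.5 in Control, and 2531, 2653.5, 3066 and 3408 in Bmi1. The Bmi1 array was lower in 4 of 4 pairs after centring, by little each time (-0.18, -0.06, -0.25 and -0.10). In pair 2 the signal itself was higher in the Bmi1 array. The mean of -0.15 (95% interval -0.32 to 0.02) did not pass in limma (adjusted p = 0.348 with the block). A second Igfbp7 probe set gave -0.22, and the third, 1437804_at, was at background on all 8 arrays and was not tested.

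Genes whose pattern over the 8 arrays was most like that of each member were named by Pearson r of the centred log2 values. All arrays share the split between replicates 1 and 2 and replicates 3 and 4, so these values describe the arrays. For Igf1 they were Tpm1 (0.99), Maf (0.99) and Dnajb4 (0.99), Tpm1 encoding a tropomyosin of contractile filaments. For Igf2 they were Apoe (0.98), Tuba4a (0.98) and Ndufc2 (0.97), Apoe encoding an apolipoprotein made in liver. For Igfbp7 and for Igfbp4 the secreted liver protein haptoglobin (Hp) was among the first 3 (0.99 and 0.96), with Mt1 and Tmem176b beside Igfbp7 and Abca1 and P4hb beside Igfbp4. For Igf1r they were Rgl3 (0.95), Zfp568 (0.95) and Lrrc56 (0.94), and for Igf2r Lonrf1, Ccdc28b and Arpc1a (0.97 each). For Igfbp3 they were Mydgf, Gpld1 and Sec23a (0.95 to 0.96). Beside Igfbp1 stood 1810010H24Rik (0.98), 2810459M11Rik (0.97) and Xbp1 (0.97). Beside Igfbp2 stood Slc16a6 (0.94), Gnpnat1 (0.93) and Ms4a4d (0.93), and beside Igfbp5 Shroom1 (0.96), Gid4 (0.94) and Decr2 (0.94).

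The wider pathway was read from a list of 45 other genes, of which 35 were tested, 5 were under the level filter (Igfbp6, Igfbpl1, Insrr, Irs4 and Pappa2) and 5 were not analysed here. Means were lower for 23 and higher for 12, with a median difference of -0.09. In limma 1 of 35 fell without the block (Pck1), 2 fell with it (Pck1 and G6pc) and 0 rose, against 0.165% and 3.33% of all genes called. At an unadjusted p under 0.05 there were 3 and 5 of 35, against 7.81% and 18% of all genes. In limma 0 genes passed among the 6 tested receptors and substrates, the 6 of the growth hormone arm, the 14 of the PI3K-Akt-mTOR arm, the 4 proteases and their inhibitors, the 1 other binding protein or the 2 Igf2 messenger binding proteins. Of these, 3 (Irs2, Igf2bp3 and Stc1) had an unadjusted p under 0.05 with the block and 1 (Igf2bp3) without it. Median differences of the 6 groups were -0.04, -0.07, -0.10, 0.36, -0.29 and -0.29.

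Both genes that fell encode enzymes of glucose production that insulin represses through Foxo1. Igfbp1 and Irs2, also named here as repressed by insulin, gave -0.18 and 0.44 and did not pass in limma with or without the block. Insulin signalling itself was not tested. Pck1, the gluconeogenic enzyme phosphoenolpyruvate carboxykinase, read 127, 119.95, 111.5 and 136 in Control, and 23.2, 49.1, 27.7 and 52.4 in Bmi1. Every Control array was above every Bmi1 array. The difference was -1.74 (95% interval -2.33 to -1.16), with a limma adjusted p of 0.0434 without the block and 0.0112 with it. Leaving out any single array raised the p without the block above the threshold, to between 0.0526 and 0.150, while the difference stayed between -1.58 and -1.90. With the block it passed in limma without any one pair (adjusted p from 0.0216 to 0.0434). With the probe sets of Pck1 averaged the difference was -0.68 and did not pass in limma (adjusted p = 0.334, and 0.160 with the block), so the call rested on the brightest probe set.

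G6pc, the catalytic subunit of glucose-6-phosphatase, read 452, 910.4, 457 and 274 in Control, and 175, 293, 108 and 146 in Bmi1. The Control array of replicate 4 lay below Bmi1 replicate 2, and each Bmi1 array was below its partner. The difference was -1.55 (95% interval -1.99 to -1.11 with the block), with a limma adjusted p of 0.0112 with the block and 0.232 without. With the block it passed in limma without any one pair (adjusted p from 0.00938 to 0.0444). The third gene listed as repressed by insulin through Foxo1, the substrate Irs2, had a mean difference of 0.44 and did not pass in limma (adjusted p = 0.263 with the block). Irs2 and the next genes were named after their values were seen. Igf2bp3, which binds Igf2 messenger RNA, gave -0.33 (limma adjusted p = 0.154 with the block), and Stc1, an inhibitor of PAPP-A, gave 0.90 (0.230). The summed hepatoblast and hepatocyte markers (7 of 8 listed on the array, 0 at background on all arrays) were also lower in the Bmi1 array in 4 of 4 pairs (19082 to 29059 in Control, 16247 to 26588 in Bmi1), and the summed biliary markers (5 of 6, 0 at background) were higher in all 4 (2174 to 3301, and 4032 to 4351). Of the hepatoblast and hepatocyte markers 7 were tested and 6 were lower (median -0.16), against 54.3% of all genes. All 5 biliary markers tested were higher (median 0.51). With the block 1 hepatoblast and hepatocyte marker and 2 biliary markers were called in limma, against 3.33% of all genes. Without it 0 of either list were, against 0.165%. The part of either cell type in the differences of Pck1 and G6pc was not tested.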

How the data were processed

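The deposited values are probe set signal intensities on a linear scale, which the authors scaled to the same mean after trimming 2% at each end (100 on every array). Which software produced these intensities is not stated in the sources. Of 45101 probe sets, 34945 had 1 gene symbol in the platform annotation, 932 had several, 9160 are unnamed here and 64 were controls; 34754 symbols were matched through gene identifiers. The number of arrays limits the precision.

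The log2 scale here is log2(value + 3.78), where 3.78 is a offset (the overall median over 4) that makes changes of dim genes look smaller. The single-symbol probe set of highest mean stood for a gene, genes below the 40th percentile of mean level were left out (10916 of 18193 remained), and each array was centred on the median of the tested genes. The contrast, Bmi1 minus Control, was fitted in limma 3.58.1 under R 4.3.3 (intensity trend, two-sided, Benjamini-Hochberg adjustment over all tested genes, threshold 0.05). The code was tested on simulated data. Background on each array was the 95th percentile of 27 Bacillus control probe sets without spiked RNA (4.09 to 9.97).

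The model without a block is the main one. Arrays of equal number deviated together from their group means (correlations of 0.53, 0.49, 0.50 and 0.68), and each array correlated best with its own number, so the numbers were taken to pair the arrays and a second model took that number as a block. The split between replicates 1 and 2 and 3 and 4 adds to these correlations.

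The members and gene lists were chosen with earlier results of these data known. Named genes are the 10 members, genes of the wider list called in either model, and up to 3 genes of most similar pattern per member. Irs2, Igf2bp3 and Stc1 fall outside this rule and were named after their values were seen. Alternatives were other blocks, scalings, constants, filters, probe set rules, array weights and left-out arrays or pairs. Protein sequences were not analysed here.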

Additional observations from a re-analysis of the deposited data

Results flagged for a closer look

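In the Control arrays 1 signal stood far from the other 3 at a pair of probe sets. At Igfbp4 1423757_x_at the lowest was replicate 1 (1476, against 2081 to 2140), its gap to the next being 0.912 of the group's range. At Igfbp5 1422313_a_at the highest was replicate 2 (178, against 6.22 to 22.7), with a gap of 0.904 of the range. Of 54 sets of 4 signals, a group and tested probe set of the axis each, these 2 passed Dixon's criterion at the 95% level, where chance gives about 2.7, and on the centred log2 scale 0 of 54 did.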

How the results depend on the processing

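Over the alternatives run, Igf2, Igfbp1, Igfbp2, Igfbp3, Igfbp4 and Igfbp7 kept their direction, and without a block 0 of 10 genes of the axis passed in any of them. With the replicate block 1 of 10 passed, and also with replicates 1 and 2 against 3 and 4 as the block (198 genes array-wide), with the replicate block and no centring, centring on all probe sets, quantile normalisation or averaged probe sets (409, 477, 344 and 312 genes array-wide), against 363 for the replicate block itself. It was 0 to 2 with a pair left out (187, 140, 94 and 207 array-wide without pairs 1 to 4). With the replicate block and no level filter 0 of 10 passed (293 array-wide) and 1 of the probe sets tested by themselves, against 3 with the filter. Leaving out 1 array gave 0 of 10 throughout and 0 to 20 genes array-wide in place of 18.

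Array-wide counts without a block were 28 with no centring, 7 with quantile normalisation, 32 with the median as the constant, 37 with array weights, and 0 with the 60th percentile filter or within replicates 1 and 2 or 3 and 4. In the wider list 2 genes passed with either block, the replicate block with no centring, centring on all probe sets or quantile normalisation, and the replicate block with no filter or with any pair left out (2 to 2). It was 0 within replicates 1 and 2 or 3 and 4, and, without a block, with centring on all probe sets, quantile normalisation, the median divided by 16 as the constant, no filter, the 60th percentile filter, averaged probe sets or any array left out (0 to 0). The fewer arrays of the split comparisons leave fewer degrees of freedom; for the other changes the cause was not tested.

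Some directions turned. Igf1r was -0.070 within replicates 1 and 2, Igf2r 0.14 and Igfbp5 0.63 within replicates 3 and 4, Igfbp5 0.27 with averaged probe sets, with or without the block, and Igf1 0.40 with array weights. Igfbp5 ran from -1.04 to 0.39 with 1 array left out, and 0.39 was without Control replicate 2; it ran from -1.31 to 0.33 with a pair left out in the block model. The 60th percentile filter gave no value for Igf1, Igfbp2, Igfbp5 or Pck1. The highest control probe set as background left the count at 1 probe set. The block with no filter, the block with averaged probe sets and the division into replicates 1 and 2 against 3 and 4 were chosen after seeing the data. Igf1 in replicates 3 and 4, Igfbp2 and Igfbp5 lie near background, which limits their folds.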
